A study of Mus musculus with 8 samples.

Results

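A set of airway surface genes was followed here: the secretoglobins Scgb1a1, Scgb3a1 and Scgb3a2, the mucins Muc5b, Muc5ac, Muc1 and Muc4, and the defence proteins Bpifa1, Bpifb1 and Reg3g. They were chosen by name, with earlier results of these data known, and all 10 of 10 were found among the 33027 genes of the expression matrix. Their levels were read in cells annotated as Club, Goblet, Basal, Ciliated and AT2 (alveolar type 2), and mice exposed to cigarette smoke (CS) were compared with mice kept in room air (RA).

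Single-cell RNA from the right lungs of 8 Sftpc-CreERT2-mTmG mice on a C57BL/6 background was sequenced. All mice had received tamoxifen as young adults, after which cells with an active Sftpc promoter carry green fluorescent protein and other cells tdTomato, so the reporter marks AT2 cells and not the airway cells described here. Littermates were then exposed for 10 months to smoke of 3R4F research cigarettes (CS mice C2, C5, D2 and D5) or to room air alone (RA mice F1, F3, M1 and M3). Part of the CD45+ immune cells had been removed on magnetic beads before barcoding, and the cell types are those the authors named after clustering.

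The fluid that lines the airways is made by secretory cells of the surface epithelium. Club cells secrete secretoglobins, small proteins led by Scgb1a1 (club cell secretory protein), and metabolize inhaled chemicals. Goblet cells secrete the gel-forming mucins Muc5b and Muc5ac, which form the mucus that cilia move out of the lung, while Muc1 and Muc4 are tethered to the cell surface. Bpifa1 and Bpifb1 are secreted proteins of the bactericidal/permeability-increasing fold family, and Reg3g is a secreted lectin that binds Gram-positive bacteria.

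The cells of the 5 types numbered 7490 of the 40074 cells used. Club cells numbered 643 in CS mice, against 746 in RA mice, Goblet cells 200 and 309, Basal cells 121 and 71, Ciliated cells 1882 and 1637, and AT2 cells 705 and 1176. Basal cells were the fewest, with 10 to 37 a mouse. Total UMIs (unique molecular identifiers, 1 per captured transcript) ran from 33145096 to 48490570 in CS mice, against from 31094695 to 52753531 in RA mice. The median depth of Club cells was 29597 to 45252 UMIs in CS mice, against 27543 to 51739 in RA mice. Both CS mice labelled male carried the X-inactivation transcript Xist at 7.83 and 8.34 transcripts per 10,000, and both CS mice labelled female carried the Y-linked Ddx3y at 0.925 and 1.08. In the RA mice these transcripts matched the label. The sex labels of all 4 CS libraries are therefore uncertain, these transcripts do not check the exposure labels, and no comparison is possible without these libraries. With the transcript that a mouse carried as a term in the fits, a choice made after seeing the data, every call of a member within a cell type was kept and none was added. Of the barcode sequences, 197 occurred in more than 1 library, 18 of them among the 5 types.

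Promoters of 6 of the 10 genes were matched in RefSeq (GRCm38.p6, 250 bases before to 50 bases after the start), those of Bpifa1, Bpifb1, Muc1, Muc4, Reg3g and Scgb3a1. The 3 printed here belong to genes whose levels differed most between the groups in Club or Ciliated cells, and Muc5b was not matched. Capitals mark matches to 5 short motifs searched on both strands.
Scgb3a1, chr11:49663345-49663644, plus strand: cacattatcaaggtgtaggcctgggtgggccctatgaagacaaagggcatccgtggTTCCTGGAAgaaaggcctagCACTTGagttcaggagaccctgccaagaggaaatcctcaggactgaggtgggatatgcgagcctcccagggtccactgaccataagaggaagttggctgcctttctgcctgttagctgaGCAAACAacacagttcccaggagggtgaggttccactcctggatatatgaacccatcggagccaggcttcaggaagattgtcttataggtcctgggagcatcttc
Reg3g, chr6:78468825-78469124, minus strand: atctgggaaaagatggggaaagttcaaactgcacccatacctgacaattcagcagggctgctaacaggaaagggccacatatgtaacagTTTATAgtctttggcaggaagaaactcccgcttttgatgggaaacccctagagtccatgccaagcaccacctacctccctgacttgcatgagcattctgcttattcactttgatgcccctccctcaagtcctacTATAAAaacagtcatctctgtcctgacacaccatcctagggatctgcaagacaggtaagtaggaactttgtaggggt
Muc4, chr16:32735636-32735935, plus strand: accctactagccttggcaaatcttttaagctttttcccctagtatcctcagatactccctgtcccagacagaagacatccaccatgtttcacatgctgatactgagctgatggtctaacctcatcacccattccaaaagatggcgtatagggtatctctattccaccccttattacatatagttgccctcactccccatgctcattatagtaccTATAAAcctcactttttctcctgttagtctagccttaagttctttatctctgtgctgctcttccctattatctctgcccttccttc

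The motifs were the TATA box (TATAAA), the FOXA core (TGTTTAC or TGTTTGC), the NKX2-1 core (CAAGTG), a C/EBP motif (TTGCNNAA) and a STAT motif (TTCNNNGAA). FOXA and NKX2-1 factors are known regulators of secretoglobin genes in lung epithelium. The Scgb3a1 promoter held 1 match each to the STAT motif, the NKX2-1 core and the FOXA core, beginning at positions -194, -174 and -55 from the start. Of 32851 promoters of the same length, 8.30% held the STAT motif, 13.6% the NKX2-1 core and 8.48% the FOXA core. Reg3g held 2 TATA matches, at -161 and -27, and Muc4 held 1 at -36. A TATA match was found in 13.6% of all promoters. Bpifb1, with 2 promoters, held 1 FOXA match in one of them and 1 STAT match in the other, and Bpifa1 and Muc1 held 1 TATA match each. A match is a description of the letters only.

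Members from the same family lie side by side on GRCm38 in 2 cases. Bpifa1 (chr2:154142880-154149219) and Bpifb1 (chr2:154190818-154220369) are separated by 41598 bases. Muc5ac (chr7:141788972-141819231) and Muc5b (chr7:141839070-141873084) are separated by 19838 bases. The other members lie on chromosomes 3 (Muc1), 6 (Reg3g), 11 (Scgb3a1), 16 (Muc4), 18 (Scgb3a2) and 19 (Scgb1a1). All are annotated as protein-coding, and the level of a gene is the sum over its whole locus.

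The level of a gene was taken as transcripts per 10,000 in each cell, averaged over the cells of a type in a mouse. Of the 10 genes, 7 were highest in Goblet cells, and 1 each in Club, AT2 and Ciliated cells. Scgb1a1 was highest in Club cells, at 3986 ± 286 (SD, n = 8 mice), and nearly as high in Goblet cells, at 3440 ± 378. The ranges of these types overlapped, from 3592 to 4409 in Club cells and from 3001 to 4130 in Goblet cells. The related Scgb3a2 was higher in Goblet cells, at 246 ± 37.6, than in Club cells, at 89.6 ± 22. Scgb3a1 showed a steeper order, with 567 ± 239 in Goblet cells and 18.3 ± 20.3 in Club cells. The last of these means stood next to pulmonary neuroendocrine cells at 20.5 ± 42.3 (n = 5 mice, 84 cells in all), and they did not differ beyond their spread.

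The gel-forming mucins were goblet transcripts. Muc5b reached 14.8 ± 3.36 in Goblet cells and 1.52 ± 1.21 in Club cells. Muc5ac was found at 0.291 ± 0.215 in Goblet cells and at 0.0328 ± 0.0170 in Club cells, and in 47.7% of Goblet cells. The tethered mucins followed another order. Muc1, which lines many epithelia, was highest in AT2 cells, at 5.86 ± 0.596, followed by Goblet cells at 3.53 ± 0.847 and Club cells at 1.83 ± 0.214. Muc4 was highest in Ciliated cells, at 1.39 ± 0.648, followed by Goblet cells at 0.879 ± 0.243 and Club cells at 0.487 ± 0.174. The spread of Ciliated and Goblet cells overlapped for Muc4, with mice from 0.579 to 2.41 in Ciliated cells and from 0.448 to 1.24 in Goblet cells.

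The defence proteins were goblet transcripts as well. Bpifa1 reached 254 ± 92.2 in Goblet cells and 12.3 ± 15.5 in Basal cells, the next type, and 0.662 ± 0.842 in Club cells. Bpifb1 reached 35.3 ± 11.3 in Goblet cells and 0.859 ± 0.383 in Club cells. Reg3g reached 37.1 ± 16.2 in Goblet cells, 2.37 ± 5.33 in Basal cells and 0.396 ± 0.328 in Club cells. In the 24 types outside the epithelium the highest mean of any mucin was 0.129 (Muc1), and that of Reg3g was 0.127. Scgb1a1 still reached 30.0 there, with a median of 7.51 over these types, and Scgb3a1 was found in up to 24.0% of the cells of such a type. Free RNA left after the authors' correction can give such values, and they serve as the background here.

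**Figure D1:**
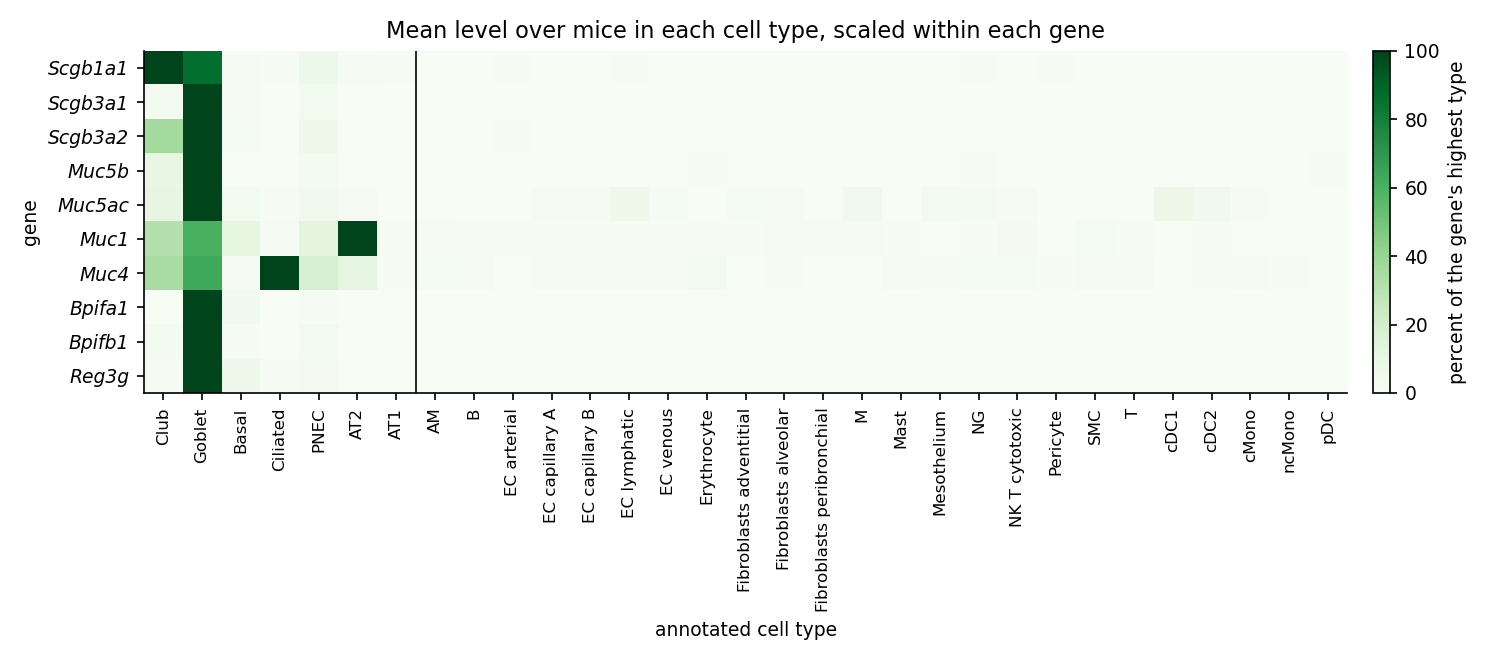
Mean level over mice of each gene (rows) in each annotated cell type with at least 10 cells in a mouse (columns), as percent of the gene's own highest type (colour). The vertical line separates epithelial from other types. Scgb1a1 is dark in Club and Goblet cells, Muc1 in AT2 cells and Muc4 in Ciliated cells, while the other 7 genes are darkest in Goblet cells.

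Within a type the transcripts were unevenly spread over cells. The top 5% of Club cells (70 cells) held 8.74% of all scaled Scgb1a1 transcripts of Club cells. The same share of cells held 79.2% for Scgb3a1, 62.4% for Muc5b, 91.7% for Reg3g, 90% for Bpifb1 and 98.5% for Bpifa1. In Goblet cells the top 5% (26 cells) held 14.6% of Scgb3a1, 16.7% of Muc5b and 24.6% of Reg3g. Bpifa1 was uneven among Goblet cells too, with a median of 39.9, a 90th percentile of 892 and a highest cell of 2169 transcripts per 10,000.

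Genes with the most similar pattern over the 32 types were found by the Pearson correlation of log2(mean level + 1), given as a description over types that share libraries and free RNA. For Muc5b these were Atp6v1b1 (r = 0.997), Chad (0.994) and Tff2 (0.990), and Tff2, a trefoil peptide secreted with mucus, was also first for Bpifb1 (0.996). For Scgb3a1 they were Chad (0.948), Tff2 (0.947) and Atp6v1b1 (0.937), and for Muc5ac Gp2 (0.990), Fut9 (0.987) and Cldn22 (0.985). Ltf, the iron-binding antimicrobial lactoferrin, was among the nearest genes of Bpifa1 (0.916) and Reg3g (0.940). The surfactant genes Sftpa1 (0.955) and Sftpd (0.948) were nearest to Muc1, and Slc44a4 (0.992), Clic6 (0.987) and Cyp2a5 (0.982) to Muc4. Scgb1a1 was nearest to Reep6 (0.862), and Scgb3a2 to Gabrp (0.953).

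In Club cells, Scgb3a1 and Muc5b were lower in CS mice than in RA mice, and the 4 CS mice lay below all 4 RA mice for both genes. Reg3g also lay below, but it entered the test only through the RA mice and is given as a description. The other 7 members did not pass the test. The test was limma on log2(level + 1) over all genes found in at least 10% of Club cells in CS or in RA mice, adjusted after Benjamini and Hochberg, with a threshold of 0.05. All 10 members were tested, but Reg3g and Muc5ac passed this filter only through the RA mice. Scgb3a1 and Muc5b passed it in both groups. Of the 11575 genes tested 0.121% were called lower and 0.199% in either direction, and the groups did not overlap, with CS lower, for 2.06%. Since the members were chosen with earlier results known, their count is not read against these shares.

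Scgb3a1, a secretoglobin of the larger airways, stood at 5.04, 4.82, 3.7 and 4.01 transcripts per 10,000 in Club cells of CS mice C2, C5, D2 and D5. In RA mice F1, F3, M1 and M3 it stood at 61.4, 25, 11.6 and 30.7. The CS mice were close together, whereas the RA mice were far apart from each other, and the lowest RA mouse was above the highest CS mouse. The means were 4.39 ± 0.637 in CS mice, against 32.2 ± 21.1 in RA mice (SD, n = 4 each), and their ratio was 0.137. The log2 difference was -2.40 (standard error 0.366, limma, adjusted p = 0.0268). With 1 mouse left out in turn it lay between -2.79 and -2.02, and the adjusted p was 0.0864 without C2, 0.0775 without C5, 0.0823 without D2, 0.0879 without D5, 0.0117 without F1, 0.0588 without F3, 0.00428 without M1 and 0.0918 without M3.

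Muc5b, the main gel-forming mucin of mouse airways, stood at 0.288, 0.923, 0.552 and 0.526 in Club cells of the CS mice. In the RA mice it stood at 1.29, 2.72, 2.28 and 3.60. Again the groups did not overlap. The means were 0.572 ± 0.262 and 2.47 ± 0.959 (SD, n = 4 each), and their ratio was 0.231. The log2 difference was -1.11 (standard error 0.180, limma, adjusted p = 0.0321). The difference lay between -1.30 and -0.96 with a mouse left out, and the adjusted p was 0.00482 without F1 and 0.141 without C2, 0.0570 without C5, 0.0917 without D2, 0.0939 without D5, 0.0862 without F3, 0.112 without M1 and 0.0899 without M3.

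Reg3g stood at 0.121, 0.0171, 0.199 and 0.148 in Club cells of the CS mice. In the RA mice it stood at 0.757, 0.919, 0.572 and 0.433. All values were under 1 transcript per 10,000, and the RA mice were above the CS mice. The means were 0.121 ± 0.0766 and 0.670 ± 0.212 (SD, n = 4 each). The CS mean lay within the range of types outside the epithelium, which reached 0.127. Cells of these types differ in depth from Club cells, so levels per 10,000 do not settle how much of it is free RNA, which was not tested. The log2 difference was -0.57 (standard error 0.0809). Reg3g was found in 9.02% of the Club cells of CS mice and 18.5% of those of RA mice, so it entered the test through the RA group, in which it had to be higher. Its adjusted p (0.0220, limma) is therefore not read as a call, and these values are a description. Without C2, C5 or D5 the adjusted p was 0.0864, 0.0691 and 0.0734, and the difference lay between -0.64 and -0.50 with a mouse left out.

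With no filter on genes none of the 3 genes was called in Club cells (adjusted p = 0.333 for Scgb3a1 and Muc5b and 0.278 for Reg3g, limma). With summed UMIs, where deep cells weigh more, Muc5b was called and Scgb3a1 (0.0549) and Reg3g (0.0636) were not.

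The other members of Club cells overlapped between the groups. Scgb1a1, the main product of these cells, was 4160, 3899, 4144 and 3592 in CS mice, against 4185, 4409, 3860 and 3643 in RA mice, with a log2 difference of -0.03 (standard error 0.0556). Scgb3a2 differed by -0.16 (0.199). Muc1 differed by 0.09 (0.0864), Muc4 by 0.15 (0.0890) and Muc5ac by -0.02 (0.0156). Bpifa1 differed by 0.08 (0.341) and Bpifb1 by 0.13 (0.165). 

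**Figure D2:**
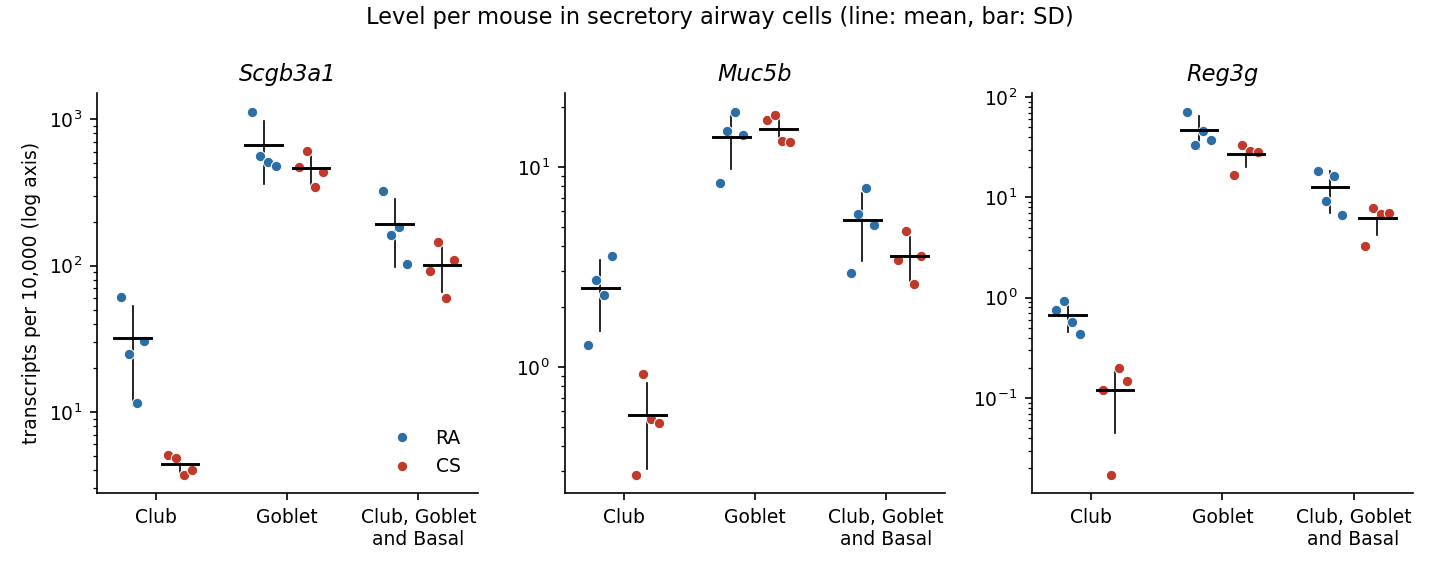
Level of Scgb3a1, Muc5b and Reg3g per mouse (points, n = 4 CS and 4 RA mice) in Club cells, in Goblet cells and in Club, Goblet and Basal cells counted as 1, in transcripts per 10,000 on a log axis. Horizontal lines are means and vertical bars SD. The groups are apart in Club cells for all 3 genes and overlap in the other columns, except that Reg3g in Goblet cells is just apart (33.5 and 33.6).

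Deeper cells show a transcript more often, so each cell was also thinned to 2000 UMIs, which left out 23 CS and 70 RA Club cells. Corrected counts, which need not be whole, were rounded to whole UMIs for thinning, while before thinning any value above 0 counted. Shares before and after thinning, here and in other types, therefore differ by this rounding as well as by depth. Scgb3a1 was then found in 10.3% ± 1.80 of Club cells in CS mice, against 22.4% ± 5.68 in RA mice, and in 3.48% and 3.27% of B cells, which should lack it. Muc5b was found in 6.73% ± 2.07 and 17.7% ± 2.85 of Club cells, against 0.257% and 0.996% of B cells. Reg3g was found in 1.91% ± 0.807 and 5.96% ± 0.674 of Club cells, against 0.760% and 0.547% of B cells. CS mice were below RA mice for all 3 genes (exact two-sided permutation p = 0.0286 each, unadjusted, the smallest that 4 against 4 mice allow). The levels of these genes in the same cells were already apart, and Reg3g had entered through the RA mice. These p-values restate that difference and are a description. Before thinning the shares were 20.4% and 31.8% for Scgb3a1, 26.9% and 39.5% for Muc5b, and 8.05% and 17.6% for Reg3g, with exact p of 0.0571, 0.0857 and 0.0286. Muc5ac and Bpifb1 passed 0.05 only before thinning (exact p = 0.0286 each, and 0.571 and 0.457 in thinned cells). Unthinned Club cells had a median depth of 32786 UMIs and B cells one of 4055.

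In Goblet cells none of the 10 members was called with limma, where 0.177% of 11842 genes were. At an unadjusted p under 0.05 there were 3 members and 1506 genes. Reg3g was 16.8, 33.5, 29.3 and 28.5 in CS mice, against 71.6, 33.6, 46.1 and 37.7 in RA mice, and differed by -0.76 on the log2 scale (standard error 0.290, adjusted p = 0.315). Its groups touched without overlapping, with the highest CS mouse at 33.5 and the lowest RA mouse at 33.6. It was the only member in Goblet cells without overlap, where 1.28% of all genes tested were lower and 7.24% higher without overlap. Bpifa1 was 282, 157, 156 and 177 in CS mice, against 426, 296, 302 and 240 in RA mice, and differed by -0.72 (0.185, adjusted p = 0.130). Here the CS mouse C2 lay above the RA mouse M3. Without C2 the difference was -0.92 (adjusted p = 0.0466), and with the sequencing lane as a block, each lane holding 1 CS and 1 RA mouse, the adjusted p was 0.0367. Quantile normalisation of the mice brought the difference to -0.26.

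Scgb3a1 in Goblet cells was 471, 608, 346 and 438 in CS mice, against 1127, 561, 506 and 477 in RA mice, so the groups overlapped, and the difference was -0.45 (standard error 0.216, adjusted p = 0.402). Bpifb1 differed by -0.52 (0.283, adjusted p = 0.456). The gel-forming mucins had positive differences, 0.16 (0.281) for Muc5b and 0.21 (0.10) for Muc5ac, with adjusted p of 0.828 and 0.391. Scgb1a1, Scgb3a2, Muc1 and Muc4 differed by between -0.06 and 0.06. Thinned to 2000 UMIs, Reg3g was found in 66.2% ± 7.65 of Goblet cells in CS mice, against 90.1% ± 5.25 in RA mice, and Bpifa1 in 57.2% ± 2.86 and 78.8% ± 11.2 (exact two-sided permutation p = 0.0286 each, unadjusted). The level of Reg3g in the same cells was already apart, so its p-values restate that difference and are a description. Before thinning the shares were 86.9% and 98.4% for Reg3g (exact p = 0.0286) and 75.6% and 86.3% for Bpifa1 (exact p = 0.114), so that the Bpifa1 shares passed 0.05 only in thinned cells. The same held for Scgb3a1, found in 96.5% ± 3.49 and 100% of thinned Goblet cells (exact p = 0.0286) and in 98.4% and 100% before thinning (exact p = 0.429). The thinned Scgb3a1 shares were near their ceiling, at 91.3% (C2) to 98.6% (D5) in CS mice with 23 to 71 Goblet cells. They rest on the few cells that lacked it. Bpifb1 passed 0.05 only before thinning (exact p = 0.0286, and 0.143 in thinned cells).

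The difference of Scgb3a1 in Club cells was also tested against that in other types of the same mice. The log2 difference between CS and RA mice was more negative in Club than in Goblet cells, by -1.95 (standard error 0.241, limma, adjusted p = 0.00309), and this was called with each mouse left out. Against Basal cells the value was -1.26 (0.394, adjusted p = 0.540) and was not called. Of the genes tested in both types, 0.0359% were called between Club and Goblet cells and 0.0% between Club and Basal cells. In AT2 and Ciliated cells Scgb3a1 stood at 0.143 ± 0.152 and 0.525 ± 0.373 (SD, n = 8), within the range of types outside the epithelium, which reached 0.831. The values against them, -2.27 for AT2 and -2.60 for Ciliated cells, passed the threshold (adjusted p = 0.0423 and 0.0217, limma, beside 0.0232% and 0.823% of genes called) but restate the difference in Club cells. The first was lost without any mouse but M1 (adjusted p of 0.0921 to 0.230), and the second was kept without F3 or M1, lost without C2 (0.0724), D5 (0.0758), F1 (0.0513) or M3 (0.0644), and could not be fitted without C5 or D2, where the gene fell under the filter in Ciliated cells. For Muc5b the value against Goblet cells was -1.27 (0.230, adjusted p = 0.0733), and for Reg3g it was 0.20 (0.279, adjusted p = 0.925).

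The line between Club and Goblet cells was drawn by the authors' clustering, in which these genes took part, so a cell rich in Scgb3a1, Muc5b or Reg3g could be counted on either side. A level was therefore marked for each gene, the 10th percentile of Goblet cells, and the share of cells at or above it was counted. For Scgb3a1 this level was 105 transcripts per 10,000. The shares of Club cells that reached it were 2.38%, 2.01%, 1.80% and 0.532% in CS mice, against 14.4%, 6.67%, 3.17% and 7.02% in RA mice. All CS mice were below all RA mice, with means of 1.68% ± 0.803 and 7.82% ± 4.73 (SD, n = 4 each). For Muc5b (level 3.55) the means were 4.02% ± 1.14 and 17.2% ± 4.91, and for Reg3g (level 0.956) 1.98% ± 1.76 and 9.32% ± 0.738, again without overlap. These genes were already apart between the groups in Club cells, and a few cells carried most of their level there, so the shares are a description with no test. For Scgb3a2 the shares were 33.2% and 34.1%, and for Bpifb1 they were 7.19% and 10.3%.

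With Club and Goblet cells counted together, a cell counted in the same way on either side of that line, although the level was still set by Goblet cells. For Scgb3a1 the shares were 21.1% ± 4.49 in CS mice, against 31.9% ± 6.50 in RA mice, and the groups overlapped. For Muc5b they were 23.3% ± 4.92 and 37.2% ± 8.02, and for Reg3g 20.2% ± 4.00 and 33.3% ± 7.0, with no overlap. The nearest mice were close, at 28.6% (D5) and 29.1% (F1) for Muc5b. For Reg3g they nearly touched, at 25.10% (D5) and 25.18% (M3). These shares rest on how many Goblet and Club cells a library held as well as on the level in each cell.

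**Figure D3:**
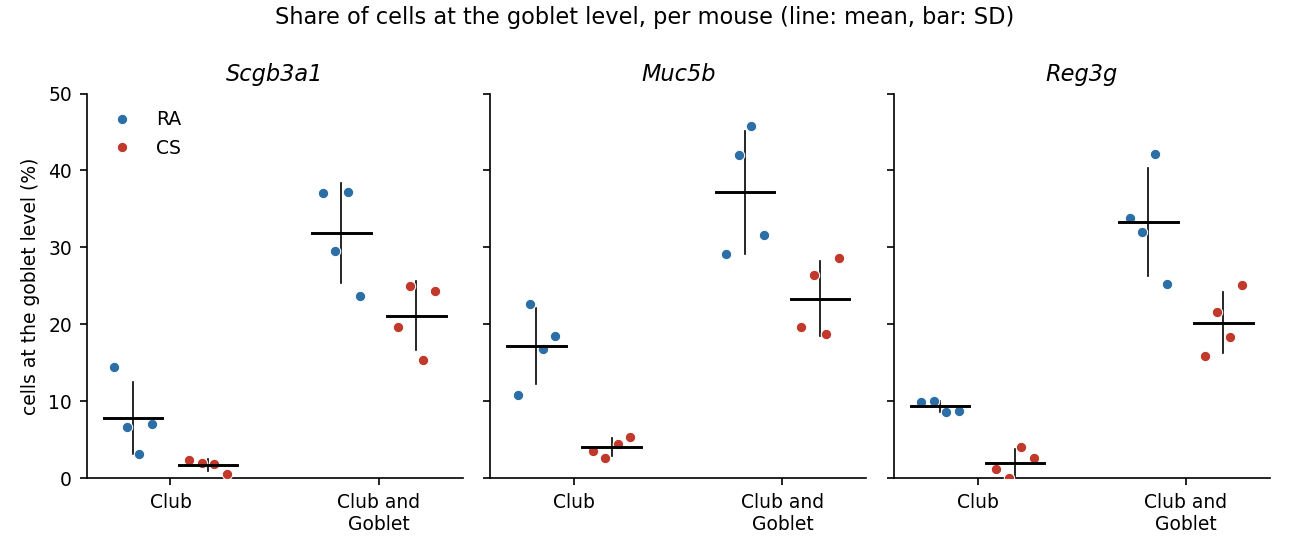
Percent of cells at or above the 10th percentile of Goblet cells for Scgb3a1, Muc5b and Reg3g, per mouse (points, n = 4 CS and 4 RA mice), in Club cells alone and in Club and Goblet cells counted together. Horizontal lines are means and vertical bars SD. CS mice are below RA mice in Club cells for all 3 genes, and overlap with RA mice for Scgb3a1 when Goblet cells are added.

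The Club cells at the goblet level of Scgb3a1 numbered 61 of 1389, with 10 in CS mice and 51 in RA mice. They carried other goblet transcripts as well, since Muc5b was found in 98.4% of them and Reg3g in 80.3%, against 31.2% and 11.1% of the other Club cells. Their mean Muc5b level was 12.4 transcripts per 10,000, beside 1.13 in the other Club cells and 15.5 in Goblet cells. Bpifa1, at 4.10, stayed far from the 259 of Goblet cells, and Reg3g, at 6.70, was between the other Club cells (0.159) and Goblet cells (38.2). Scgb1a1 was 4633 in these cells and 3990 in the other Club cells. Their median depth was 40562 UMIs, beside 32521 in the other Club cells and 35093 in Goblet cells.

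As 1 population, the Club, Goblet and Basal cells gave no member past the threshold (0 of 10 with limma, 3 at an unadjusted p under 0.05), where 0.457% of 11594 genes were called, 0.345% higher and 0.112% lower, and 1918 had an unadjusted p under 0.05. Scgb3a1 was 92.3, 144, 59.6 and 108 in CS mice, against 324, 161, 183 and 102 in RA mice, and the groups overlapped. Its log2 difference was -0.87 (standard error 0.312, adjusted p = 0.202). Muc5b differed by -0.45 (0.222, adjusted p = 0.335) and Reg3g by -0.87 (0.307, adjusted p = 0.196). Bpifa1 differed by -0.90 (0.286, adjusted p = 0.164), and by -1.20 without M3 (adjusted p = 0.0425). Bpifb1 differed by -0.66 (0.308, adjusted p = 0.311). Of the 10 members 8 had a negative difference, with a median of -0.35 beside 0.02 over all genes tested, and in all 10 the groups overlapped. Of all genes tested 8.62% were higher and 1.79% lower without overlap. Without Basal cells, a choice made after seeing these data, the differences were -0.77 for Scgb3a1, -0.89 for Reg3g and -0.87 for Bpifa1, and none was called.

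Where the transcripts lay can be given without a level per cell, as the share of a gene's UMIs in a library that each type held. Club cells held 2.71% ± 1.16 of all Scgb3a1 UMIs in CS mice, against 12.7% ± 7.18 in RA mice. They held 8.43% ± 3.26 and 27.5% ± 10.1 of the Muc5b UMIs. For Reg3g they held 1.78% ± 1.80 and 3.69% ± 1.62. Goblet cells held 89.1% ± 3.57 of the Muc5b UMIs in CS mice, against 69.9% ± 9.40 in RA mice. These shares follow the cell numbers too.

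Markers of other types were read in the Club cells of each mouse. The summed level of 8 ciliated cell markers was 17.3 to 21.5 transcripts per 10,000 in Club cells of CS mice and 12.9 to 17.1 in those of RA mice, with CS above RA and none of the 8 at 0. In Ciliated cells that sum was 97.1 to 109. The sum of 8 goblet markers, which holds Muc5b, Muc5ac and Bpifb1, was 1.18 to 2.65 in CS and 2.93 to 6.20 in RA mice, with 1 of the 8 at 0. Of 60 list sums over all types 3 did not overlap between the groups (exact two-sided permutation p = 0.0286 each, unadjusted). They were the ciliated and goblet sums in Club cells and a sum in Basal cells given below. With no difference between the groups, a sum is apart with a probability of 0.0286, so some of 60 may be apart by chance. The goblet sum holds Muc5b, whose level in the same cells was already apart. The p-value of the goblet sum in part restates that difference and is a description. The part of the ciliated and goblet sums in the results on Club cells was not tested. The other lists overlapped between groups in Club cells, among them 8 immediate early and heat shock genes that rise during tissue digestion (12.9 to 36.5 in CS and 10.3 to 33.8 in RA mice). The median mitochondrial share of Club cells was 1.59% to 2.22% in CS mice, against 1.31% to 2.04% in RA mice.

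Basal cells, the stem cells of the airway surface, had the highest level of 7 of their 8 markers, Krt5, Krt15 and Trp63 among them, whereas Krt14 was highest in mesothelium. Of the 8 club markers, Cyp2f2 was highest in Basal cells, at 69.1 beside 59.8 in Club cells. Scgb3a2 was highest in Goblet cells, Aldh1a1 in Ciliated cells and the others in Club cells. Of the 10 members 7 passed the filter there and none was called with limma. No gene of 10003 was called (0.0%), and 915, 1 member among them, had an unadjusted p under 0.05. That member, Bpifb1, was found in 5.79% of the Basal cells of CS mice and 16.9% of those of RA mice. It entered the test through the RA mice alone, where it was higher, so its p is only a description. Muc5b was at 0 in all 8 mice. The members' levels in Basal cells rested on a few cells. The top 10 cells held 99.5% of the Scgb1a1 signal, 97.4% of Reg3g and 85.9% of Bpifa1. Bpifa1 was 1.5, 45.3, 6.07 and 5.47 in CS mice, against 3.7, 1.03, 25.6 and 9.72 in RA mice. Reg3g reached 15.5 in D2 and was at most 0.202 in the rest of the CS mice, against at most 1.26 with RA. The share of Basal cells with Reg3g went the other way, at 12.5% in CS mice, against 28.0% in RA mice, and 2.11% ± 2.62 and 10.7% ± 4.11 after thinning to 2000 UMIs. Each CS mouse was below each RA mouse in the thinned share (exact two-sided permutation p = 0.0286, unadjusted), which rests on the 10 to 37 Basal cells of a mouse. In level the groups overlapped for all 10 members, and of all genes tested 2.95% were higher and 2.58% lower without overlap. A sum of 8 AT2 markers was 6.32 to 16.2 in Basal cells of CS mice and 2.72 to 5.37 in those of RA mice, the other sum without overlap (exact two-sided permutation p = 0.0286, unadjusted), and its part here was not tested.

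In Ciliated cells Muc4 was higher in CS mice. Muc4 is a large mucin tethered to the surface that faces the airway lumen, and these cells held 46.3% to 81.2% of its UMIs in each library. It stood at 2.41, 2.19, 1.15 and 1.74 transcripts per 10,000 in CS mice, against 0.579, 1.10, 1.03 and 0.937 in RA mice. The lowest CS mouse, D2, was just above the highest RA mouse, F3. The means were 1.87 ± 0.557 and 0.910 ± 0.230 (SD, n = 4 each), and their ratio was 2.06. The log2 difference was 0.58 (standard error 0.135, limma, adjusted p = 0.0399). Muc4 was the only member called of 7 that passed the filter, where 4.63% of 11077 genes were called, 2.72% higher and 1.91% lower. The groups did not overlap, with CS higher, for Muc4 and for 9.28% of all genes tested, and with CS lower for none of the members and 6.65% of all genes. Muc4 was found in 30.4% ± 7.97 of Ciliated cells of CS mice and 14.3% ± 3.33 of those of RA mice after thinning to 2000 UMIs (exact two-sided permutation p = 0.0286, unadjusted), and in 0.509% and 0% of B cells. The level of Muc4 in the same cells was already apart, so this p-value restates that difference and is a description.

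The Muc4 call was lost in several alternatives. With the sequencing lane as a block the adjusted p was 0.0876, and with no filter on genes 0.163. It was 0.109 without C2, 0.0805 without C5, 0.0904 without D5, 0.0751 without F1, 0.0609 without F3, 0.0548 without M1 and 0.0855 without M3, and 0.0142 without D2. The difference lay between 0.48 and 0.71 in these fits. The log2 difference of Muc4 in Club cells minus that in Ciliated cells was -0.43 (standard error 0.0733, adjusted p = 0.0186). That call was lost without C2 (0.0724), C5 (0.0551), F1 (0.0513) or M3 (0.0557), and with a pseudocount of 0.1 in place of 1 (-0.59, adjusted p = 0.0753). The sums of club, goblet and AT2 markers in Ciliated cells overlapped between the groups, but reached higher in CS mice. The AT2 sum barely overlapped, at 1.729 to 4.07 in CS mice, against 1.25 to 1.733 in RA mice. The goblet sum was 0.434 to 0.588 and 0.291 to 0.556, and the club sum 124 to 165 and 105 to 144. Their part in the Muc4 result was not tested.

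**Figure D4:**
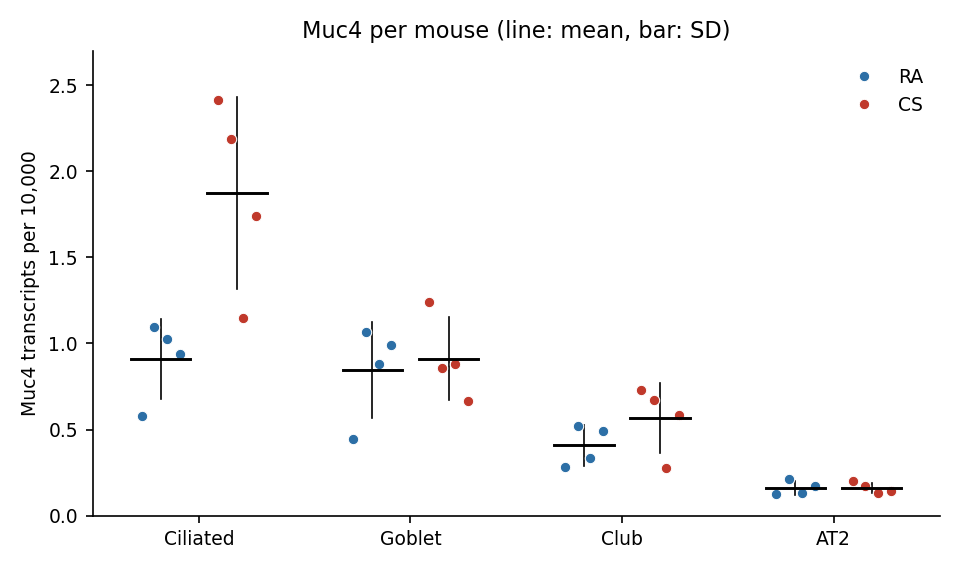
Muc4 level per mouse (points, n = 4 CS and 4 RA mice) in Ciliated, Goblet, Club and AT2 cells, in transcripts per 10,000. Horizontal lines are means and vertical bars SD. CS mice are above RA mice in Ciliated cells (1.87 and 0.910 on average), and the groups overlap in the other types.

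The other tested members overlapped between the groups in Ciliated cells. Scgb1a1 was 15.6 to 37.5 in CS mice, against 11.1 to 36.8 in RA mice, and Scgb3a1 and Scgb3a2 differed by 0.19 (standard error 0.197) and 0.21 (0.203). Reg3g was 0.131 to 0.791 in CS mice, against 0.270 to 0.676 in RA mice. Muc1 differed by 0.01 (0.0147) and Bpifa1 by -0.01 (0.102). In both groups the means of Scgb1a1, Scgb3a1, Scgb3a2, Muc1 and Bpifa1 lay within the range of types outside the epithelium. That range reached 30.0, 0.831, 1.06, 0.129 and 0.358 for these genes. Scgb3a1 (found in 10.5% of cells in CS and 5.68% in RA mice) and Reg3g (10.5% and 9.04%) passed the filter through CS mice alone.

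In AT2 cells 6 members passed the filter, and none was called with limma, nor was any of 9032 genes (0.0%). At an unadjusted p under 0.05 there were 671 genes and no member. Muc1, the member with its highest level in these cells, was 7.21, 6.22, 5.66 and 5.72 in CS mice, against 5.45, 5.53, 5.68 and 5.45 in RA mice. Mouse C2 was above the others, and the groups overlapped, as for all members (2.47% of all genes were higher and 2.1% lower without overlap). The log2 difference was 0.14 (standard error 0.10, adjusted p = 0.798). Of the other 5 tested members, all with overlapping groups, Scgb1a1 was 25.8 to 66.5 in CS mice, against 31.8 to 83.2 in RA mice. In F1 it was found in 66.3% of AT2 cells and in the other mice in 7.04% to 21.4%.

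**Figure D5:**
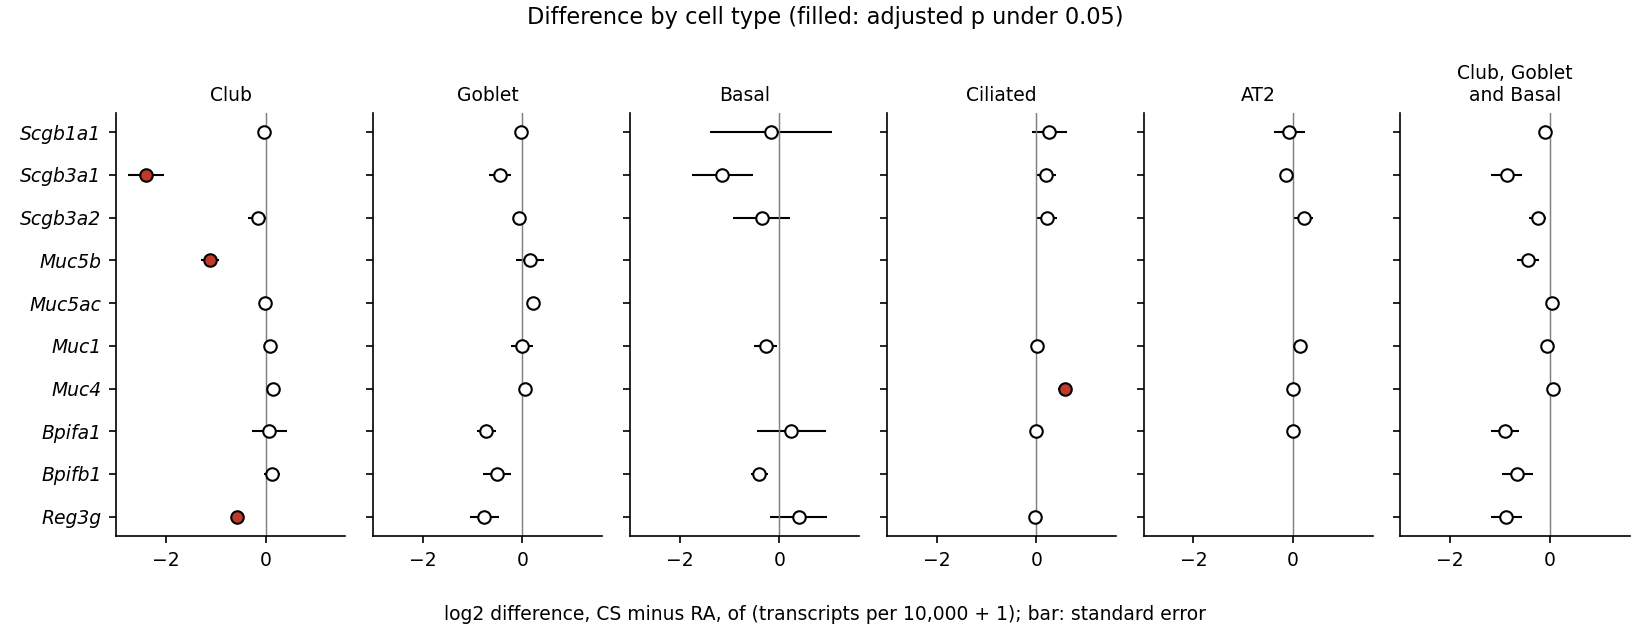
Difference of each gene between CS and RA mice on the log2(level + 1) scale (points, n = 4 mice a group), with the standard error as a bar, in the 5 cell types and in Club, Goblet and Basal cells counted as 1. Filled points have an adjusted p under 0.05, which are Scgb3a1, Muc5b and Reg3g (tested through RA mice alone) in Club cells and Muc4 in Ciliated cells, and genes under the filter have no point.

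Related genes were read in the same fits, from lists of 25 enzymes of club cell metabolism, 32 genes of mucus production, 51 defence proteins, 15 other secretoglobins and 37 regulators and receptors of secretory cells. In Club cells 1 of 24 tested enzymes, 0 of 11 mucus genes, 0 of 22 defence proteins, 0 of 1 secretoglobin and 1 of 33 regulators were called, all higher, where 0.0778% of all genes were called higher. Cyp2a5, a cytochrome P450 that metabolizes nicotine and related compounds, was 1.53 ± 0.117 in CS mice, against 0.649 ± 0.231 in RA mice (log2 difference 0.62, standard error 0.0938, limma, adjusted p = 0.0259). Notch3, a Notch receptor, was 0.509 ± 0.0367 and 0.230 ± 0.0763 (0.30, 0.0473, adjusted p = 0.0321). The groups did not overlap for either gene. Cyp2a5 had its highest level in Ciliated cells, at 8.30. The sum of ciliated markers in Club cells was also higher in CS mice (17.3 to 21.5, against 12.9 to 17.1 in RA mice). The part of ciliated transcripts in the Cyp2a5 call was not tested. The call of Cyp2a5 was lost without C2 (adjusted p = 0.0871), C5 (0.0803), D2 (0.0525), D5 (0.0734) or M3 (0.0899), with no filter on genes (0.278) and with summed UMIs (0.0788). That of Notch3 was lost without any mouse but M1, with the adjusted p between 0.0600 without F1 and 0.101 without C5, with no filter (0.221) and with summed UMIs (0.109). Tff2, whose pattern over cell types is near that of Muc5b, was 0.163 ± 0.0694 in CS and 1.30 ± 0.927 in RA mice (-0.88, adjusted p = 0.242). The defence protein Lypd2 was 1.34 ± 0.355 and 2.81 ± 0.702 (-0.70, adjusted p = 0.101), and the secretoglobin Scgb1c1 0.898 ± 0.138 and 1.45 ± 0.449 (-0.35, adjusted p = 0.308).

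In Goblet cells 1 of 24 enzymes, 0 of 17 mucus genes, 2 of 27 defence proteins and 2 of 34 regulators had an adjusted p under 0.05 (limma), all higher. The enzyme, Cyp1b1, entered the test through the CS mice alone and is not read as a call. Of all genes 0.152% were called higher and 0.0253% lower. Retnla, a secreted protein induced in type 2 responses, was 12.2, 49.2, 15.4 and 17.2 in CS mice, against 5.76, 3.78, 3.45 and 1.04 in RA mice (log2 difference 2.35, standard error 0.418, limma, adjusted p = 0.0393). Gp2, a glycoprotein that binds bacteria, was 3.18 ± 1.6 and 0.626 ± 0.370 (1.32, 0.212, adjusted p = 0.0260). Both were above all RA mice in every CS mouse. Notch3 was 0.633 ± 0.0947 and 0.193 ± 0.0846 (0.45, adjusted p = 0.0227), and its feedback inhibitor Nrarp 0.676 ± 0.129 and 0.227 ± 0.0628 (0.45, adjusted p = 0.0251). Cyp1b1, a target of the aryl hydrocarbon receptor, was 0.169 ± 0.0434 and 0.0168 ± 0.0211 (0.20, adjusted p = 0.0260). It was found in 39.5% of Goblet cells of CS mice and 7.12% of those of RA mice, so it entered the test through the CS group, in which it had to be higher, and its values are a description. For none of these genes did the adjusted p stay under 0.05 with no filter on genes (0.234 to 0.341). The same held without D2 (0.0746 for Retnla and 0.0600 for the others) or M3 (0.127 for Retnla and Cyp1b1 and 0.0744 for the others). The call of Retnla was also lost without any other mouse except F1 (0.0529 without C5 to 0.0969 without D5), with summed UMIs (0.152), with quantile normalisation (0.0547) and with labelled sex as a term (0.0633). Notch3 was also lost without D5 (0.0618), and Nrarp without C2 (0.0677), C5 (0.0529) or M1 (0.0506). The adjusted p of Cyp1b1 was also above 0.05 without C5 (0.0507), D5 (0.0573) or M1 (0.0664).

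In Ciliated cells 5 of 22 enzymes, 1 of 7 mucus genes, 2 of 17 defence proteins and 2 of 31 regulators were called, all higher, where 2.72% of all genes were called higher. With sequencing lane as a block the calls numbered 1 enzyme, 1 mucus gene, 3 defence proteins and no regulator. Of those counted without the block, the enzymes Aldh1a1, Cyp2f2 (adjusted p = 0.101), Gsto1 (0.10) and Fmo2, the defence protein Cxcl17 and the regulators Erbb3 (0.0576) and Ahr (0.0549) were lost, while Cd177 and Pigr were gained. Cyp2f2 was also lost with each mouse left out (0.0511 without C5 to 0.0853 without M3) and Gsto1 without any mouse but F1 (0.0546 without M1 to 0.108 without D5). Erbb3 was also lost without D5 (0.0531), and Ahr without C5 (0.0505), D2 (0.0600), D5 (0.0744) or M3 (0.0698). Aldh1a1, which oxidizes retinal and other aldehydes, was 28.2 ± 2.64 in CS and 17.0 ± 3.02 in RA mice (0.71, limma, adjusted p = 0.0139). Agr2, a disulfide isomerase needed to fold mucins, was 0.305 ± 0.0337 and 0.138 ± 0.00391 (0.20, adjusted p = 0.00258). Ceruloplasmin (Cp), a copper-binding ferroxidase, was 4.08 ± 0.855 and 1.53 ± 0.124 (0.99, adjusted p = 0.00282), and the mucosal chemokine Cxcl17 4.90 ± 0.494 and 3.43 ± 0.227 (0.41, adjusted p = 0.0190). Aldh1a7, an aldehyde dehydrogenase and the enzyme called with the lane block too (adjusted p = 0.0210), was 1.09 ± 0.0536 and 0.644 ± 0.0599 (0.35, adjusted p = 0.00258). The calls of Aldh1a7, Agr2 and Cp were kept with each mouse left out. That of Aldh1a1 was lost without D5 (0.0534), with lane as a block (0.0549) and with no filter on genes (0.0684), and that of Cxcl17 without C2 (0.0583), D2 (0.0559) or D5 (0.0660), with lane as a block (0.0687) and with no filter (0.0751). No listed gene was called in Basal or AT2 cells. With Club, Goblet and Basal cells together 1 of 34 regulators was called, Notch3, at 0.471 ± 0.0400 and 0.207 ± 0.0650 (0.29, adjusted p = 0.0140), and no gene of the other lists. That call was lost without D2 (0.0518), D5 (0.0649) or F3 (0.0593), with summed UMIs (0.0557) and with no filter (0.133), and the lane block added Tff2 and Gp2.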

How the data were processed

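Per the labels, 8 mouse lung libraries were made with 10x Genomics 3' chemistry, and the authors aligned them with STARsolo in STAR 2.7.3a to GRCm38.p6, removed free RNA with SoupX and named cell types. The deposited matrix holds estimated counts, UMIs after free RNA removal that need not be whole, so no count model was used. Depth per mouse and type stands in the report. The deposited percent of mitochondrial transcripts was read as given. Cells the authors called multiplets (1025) or cell cycle (7) were left out of 41106.

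Each cell was scaled to 10,000 transcripts and averaged per mouse and type, for types with at least 10 cells in a mouse. CS and RA mice were compared with limma 3.58.1 (R 4.3.3, trend) on log2(mean + 1) over genes found in at least 10% of cells in CS or RA mice, adjusted over all of them (Benjamini-Hochberg, threshold 0.05). Differences between types were taken within a mouse and fitted with the mean level as the trend, chosen after the default trend gave extreme standard errors. Single values used exact permutation tests over mice (70 assignments). The script was tested on simulated data. The labels place 1 CS and 1 RA mouse in each of 4 sequencing lanes. Deviations of mice sharing a lane from their group means correlated between -0.17 and 0.36 over types, and the lane block is given where it changed a call of a member or of a listed gene. Alternatives were the pseudocount, filters, summed UMIs, quantile normalisation, labelled sex, Xist or Ddx3y as a term (added after seeing the data), cell minimum and leaving out mice. Lane aside, nothing states that animals shared a cage or day, and p-values measure the spread between mice. Named genes were the 10 members in each type, called genes of the lists with the largest differences, else at most 2 with the smallest p, and the 3 most alike genes. The members and lists were chosen with earlier results of these data known. Promoter sequences are RefSeq's, and gene positions GENCODE M21's, while the authors' methods name the next release.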

Additional observations from a re-analysis of the deposited data

Results flagged for a closer look

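Among 100 groups of 4 mice checked, 11 had 1 mouse far from the other 3, all of them high. A mouse counted as far where its gap to the nearest other mouse, divided by the range of the group, passed Dixon's 95% critical value. Chance gives about 1 in 20 for independent groups of normally distributed values, which these skewed levels are not, and the population of Club, Goblet and Basal cells repeats cells of the single types. Mouse F1 was the highest RA mouse for Bpifa1 in Club cells (1.78 transcripts per 10,000, others 0.0823 to 0.307), for Scgb3a1 in Goblet cells (1127, others 477 to 561), and for Scgb1a1 (140, others 2.04 to 15.9) and Scgb3a1 (28.9, others 0.0604 to 2.14) in its 10 Basal cells. Mouse C5 was the highest CS mouse for Muc5ac in Goblet cells (0.802, others 0.229 to 0.298) and in Club, Goblet and Basal cells together (0.217, others 0.0570 to 0.0662), and for Bpifa1 in Basal cells (45.3, others 1.5 to 6.07). Mouse C2 was the highest CS mouse for Bpifa1 in Goblet cells (282, others 156 to 177) and for Scgb3a2 in Basal cells (12.7, others 0.329 to 2.19). Mouse D2 was the highest CS mouse for Reg3g in Basal cells (15.5, others 0.0996 to 0.202) and for Bpifa1 in Ciliated cells (0.362, others 0.0372 to 0.0577).

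The difference between CS and RA mice was tested between types within the same mice, and 4 comparisons of members passed. Of all genes tested in both types, 0.0232% were called for Club against AT2 cells and 0.823% against Ciliated cells. Against Goblet and Basal cells these shares were 0.0359% and 0.0%. The members were chosen with earlier results known, so their count is not read against these shares. For Scgb3a1 the log2 difference in Club cells minus that in Goblet cells was -1.95. The values of -2.27 for AT2 cells and -2.60 for Ciliated cells set Club cells against types in which Scgb3a1 was at background and passed the filter through CS mice alone, so they restate the difference in Club cells. The value for Basal cells, -1.26, was not called (limma, adjusted p = 0.540). For Muc4 the value in Club minus Ciliated cells was -0.43. With a mouse left out, only the Scgb3a1 value against Goblet cells was called in every fit. The Scgb3a1 value was called in 1 of 8 such fits against AT2 cells and in 2 of 6 against Ciliated cells. The Muc4 value was called in 4 of 8.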

How the results depend on the processing

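Depth and cell number limit the Basal cells most, and with a minimum of 20 cells a mouse they could not be fitted. With no filter on genes, the genes called were 0 in Club, 0 in Goblet, 71 in Ciliated and 1 in Club, Goblet and Basal cells together, and the members called were 0 in Club and 0 in Ciliated cells. The adjusted p was then 0.333 for Scgb3a1 and Muc5b and 0.278 for Reg3g in Club cells. With summed UMIs 1 member, Muc5b, was called in Club cells (Scgb3a1 0.0549, Reg3g 0.0636). The genes called in Goblet cells were 35 with a pseudocount of 0.1, 39 with genes in at least 25% of cells, 42 with quantile normalisation and 10 with labelled sex as a term. In Basal cells they were 1 with the pseudocount of 0.1 and 2 with labelled sex, in AT2 cells 1 with labelled sex, a term that goes against the sex-linked transcripts in the 4 CS mice, and in the types together 33 with the 25% filter and 16 in Club and Goblet cells, a choice added after seeing the data. With Xist or Ddx3y as a term, also added, 2 genes were called in Basal cells. With lane as a replicate block, 1 member (Bpifa1) was called in Goblet cells and 0 in Ciliated cells, the genes called were 163 in Ciliated cells and 35 in the types together, and no other member's call changed. With the pseudocount of 0.1, members whose difference differed from that in Club cells numbered 0 for AT2 (Scgb3a1 lost), 1 for Ciliated (Muc4 lost) and 2 for Goblet cells. The causes were not tested.

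With 1 mouse left out in turn, the genes called were 1 to 21 in Club, 0 to 47 in Goblet, 0 to 7 in Basal, 106 to 470 in Ciliated and 12 to 63 in the types together. The members with an adjusted p under 0.05 were 0 to 3 in Club, 0 to 1 in Goblet, 0 to 1 in Ciliated and 0 to 1 in the types together. The count in Club cells includes Reg3g, which is not read as a call. The members differing from Club cells were 0 to 1 for AT2, 0 to 1 for Basal and 0 to 2 for Ciliated cells.

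No log2 difference of a member that changed sign was called. Quantile normalisation gave 0.26 for Scgb3a2 and -0.0031 for Muc4 in Goblet cells, -0.00034 for Muc4 in AT2 cells and 0.024 for Scgb3a2 in the types together. The pseudocount of 0.1 gave 0.0036 for Muc1 in Goblet and -0.074 for Reg3g in Basal cells. Summed UMIs gave 0.11 for Scgb1a1 in Basal, 0.045 for Bpifa1 in Ciliated and 0.022 for Bpifa1 in AT2 cells, and without Basal cells Muc1 was 0.011 in the types together. With a mouse left out the sign changed for 23 differences. In Club cells they ran from -0.073 to 0.019 for Scgb1a1, -0.28 to 0.012 for Scgb3a2, -0.27 to 0.38 for Bpifa1 and -0.0074 to 0.27 for Bpifb1. In Goblet cells they ran from -0.10 to 0.051 for Scgb1a1, -0.15 to 0.069 for Scgb3a2, -0.058 to 0.31 for Muc5b, -0.23 to 0.082 for Muc1 and -0.057 to 0.12 for Muc4. In Basal cells they ran from -1.41 to 1.07 for Scgb1a1, -1.01 to 0.11 for Scgb3a2, -0.57 to 0.87 for Bpifa1 and -0.58 to 0.72 for Reg3g. In Ciliated cells they ran from -0.044 to 0.51 for Scgb1a1, -0.11 to 0.081 for Bpifa1 and -0.15 to 0.075 for Reg3g. In AT2 cells they ran from -0.27 to 0.20 for Scgb1a1, -0.011 to 0.38 for Scgb3a2, -0.015 to 0.022 for Muc4 and -0.034 to 0.0075 for Bpifa1. In the types together they ran from -0.017 to 0.052 for Muc5ac, -0.16 to 0.014 for Muc1 and -0.0021 to 0.13 for Muc4.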
